A study of Homo sapiens with 8 samples.

Results

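The aryl hydrocarbon receptor (AHR) pathway genes described here are 8 rows of the deposited count table, taken by symbol: AHR, ARNT, AHRR, TIPARP, CYP1A1, CYP1A2, CYP1B1 and ALDH3A1. All 8 were among the 23391 genes of the table, and all 8 were among the 13856 genes that were tested, all of which reached 1 cpm (the counts-per-million unit) in 2 or more libraries. DU145 is a prostate cancer line of human origin. It was stably transfected with the pcDNA3.1-zeo vector without an insert (DU145-pc3.1) or with an Esrrb expression vector (DU145-Esrrb), and cells that survived zeocin were kept as a mixed population, called a pool here, rather than as clones. The study's methods say that replicates of each transfection were pooled, and whether the sequenced replicates of a group come from separate transfections is not clear from the sources used here. Cells of both pools were left untreated or received 3 μM DY131, a phenolic hydrazone made as a ligand of Esrrb and Esrrg, in medium with charcoal-stripped serum, and 2 biological replicates of each of the 4 groups were sequenced. The length of the DY131 treatment is not given in the sources used here. The question asked of these genes was whether DY131 acted as an AHR ligand in either pool.

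AHR is a ligand-activated transcription factor of the bHLH-PAS family that waits in the cytosol in a complex with the chaperone HSP90, its co-chaperone p23 and other proteins. Planar aromatic ligands release it into the nucleus, where it pairs with ARNT and binds DNA at xenobiotic response elements. Its targets include the oxidases CYP1A1, CYP1A2 and CYP1B1 and the aldehyde dehydrogenase ALDH3A1, and the pathway is limited by targets of its own, the repressor AHRR and the ADP-ribosyltransferase TIPARP. CYP1A1 is the target most often used as a readout of AHR ligands.

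The core of the xenobiotic response element is the pentamer GCGTG. It was searched for on both strands of RefSeq promoter windows of GRCh38.p14, each reaching from 250 bases before a gene's start to 50 bases after it. Of the 8 genes, 6 had an entry, with 9 starts in all, and CYP1B1 and ALDH3A1 had none. The core was present at 5 of these 9 starts, belonging to 4 genes, and in 36.5% of all 35116 windows. The longer form TNGCGTG, which contains the core, was present at 1 start of AHRR and in 5.51% of all windows. The 250 bases before the starts of CYP1A1 (chr15:74725529-74725778, minus strand), TIPARP (chr3:156674340-156674589, plus strand) and AHRR (chr5:321464-321713, plus strand) are shown because these targets carried the core before their start. They are written 5′ to 3′ on the strand of the gene, with GCGTG, or its complement CACGC on the other strand, in capitals.

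CYP1A1: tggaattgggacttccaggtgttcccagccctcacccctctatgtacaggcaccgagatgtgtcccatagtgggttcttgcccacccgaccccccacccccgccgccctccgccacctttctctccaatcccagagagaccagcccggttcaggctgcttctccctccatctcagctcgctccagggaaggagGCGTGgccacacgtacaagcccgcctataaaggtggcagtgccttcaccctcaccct
TIPARP: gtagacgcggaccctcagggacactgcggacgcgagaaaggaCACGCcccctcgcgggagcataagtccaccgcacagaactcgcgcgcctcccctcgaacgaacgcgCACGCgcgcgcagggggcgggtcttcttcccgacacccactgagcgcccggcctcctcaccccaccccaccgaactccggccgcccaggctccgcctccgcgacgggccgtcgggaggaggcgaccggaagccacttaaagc
AHRR: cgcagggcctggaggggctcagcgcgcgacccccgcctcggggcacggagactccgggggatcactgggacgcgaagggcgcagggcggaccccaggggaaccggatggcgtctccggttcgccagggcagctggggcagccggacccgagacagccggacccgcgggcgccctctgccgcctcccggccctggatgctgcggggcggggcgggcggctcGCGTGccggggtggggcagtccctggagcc

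The core began 57 bases before the CYP1A1 start, 208 and 142 bases before the TIPARP start, and 30 bases before the AHRR start, where the longer form also matched. A second AHRR start had 2 cores, and the AHR window had 1, after the start. Windows at 2 other TIPARP starts and those of ARNT and CYP1A2 held no GCGTG. A match of these letters is a description of the sequence and was not measured as a binding site.

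The libraries held between 7858743 and 11551690 counts. The 2 with the fewest, at 7858743 and 9054498, were both of DY131-treated DU145-Esrrb cells, and the rest held 10325443 or more. ESRRB, the transfected gene, had 99 to 143 counts in each of the 4 DU145-Esrrb libraries and 0 to 3 counts in each of the 4 DU145-pc3.1 libraries. Scaled for depth, its level in DU145-Esrrb cells was 8.83 and 9.10 cpm untreated and 13.7 and 16.2 cpm with DY131. Whether this difference bears on the responses was not tested. Of 5 epithelial markers all were measured, KRT8 at 1064 to 1627 cpm. Of the prostate luminal markers, KLK3 had no counts over all 8 libraries and TMPRSS2 had 4. Of 6 leukocyte, endothelial and stromal markers, PTPRC, DES, CDH5 and PECAM1 had 1 to 39 counts over all libraries and COL1A1 had 330. CD68, a lysosomal protein of macrophages that other cells also make, was at 59.3 to 93.5 cpm and rose with DY131 in DU145-Esrrb cells by 0.30 on the log2 scale (adjusted p = 0.00120). Of its 50-base windows 92.3% also occur in other gene models, mostly overlapping ones. KRT8 shares 41.3% of its windows with other genes, pseudogenes among them, so the counts of CD68 and KRT8 are less certain. Both DU145-pc3.1 libraries made with DY131 stood further apart than other replicates did: a chi-square comparison of their counts gave 7.30 per degree of freedom, against 1.29 to 2.67 in the other groups. In the response of DU145-Esrrb cells to DY131, genes with a larger share of 50-base windows across exon junctions had lower fold changes (Spearman's rho = -0.38 across 13606 genes, which are not independent replicates), whereas in DU145-pc3.1 cells rho was 0.0097. Results were therefore also computed with an offset for this share, and values are given below wherever the offset changed a call of the 8 genes. For the markers and the lists of related genes not every changed call is shown. The part of this share in the results was not tested further.

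Before DY131 was added, the pathway was present in DU145 cells with its receptor and partner well measured and most of its inducible enzymes low. Per kilobase of the listed transcript, the mean level in untreated DU145-pc3.1 cells was 39.2 cpm for ARNT, 26.7 for TIPARP, 16.0 for CYP1B1 and 8.34 for AHR. With the longest coding transcript of the annotation, ARNT came to 19.5 cpm per kilobase. These 4 genes stood between percentiles 46.1 (AHR) and 83.8 (ARNT) of 13606 tested genes ranked by this level. The other 4 were low. CYP1A1 and AHRR were both at 1.84 cpm per kilobase (percentile 17.8), ALDH3A1 was at 1.05 (percentile 11.3) and CYP1A2 was at 0.231 (percentile 1.74). With its longest coding transcript AHRR came to 0.707 cpm per kilobase.

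**Figure D1:**
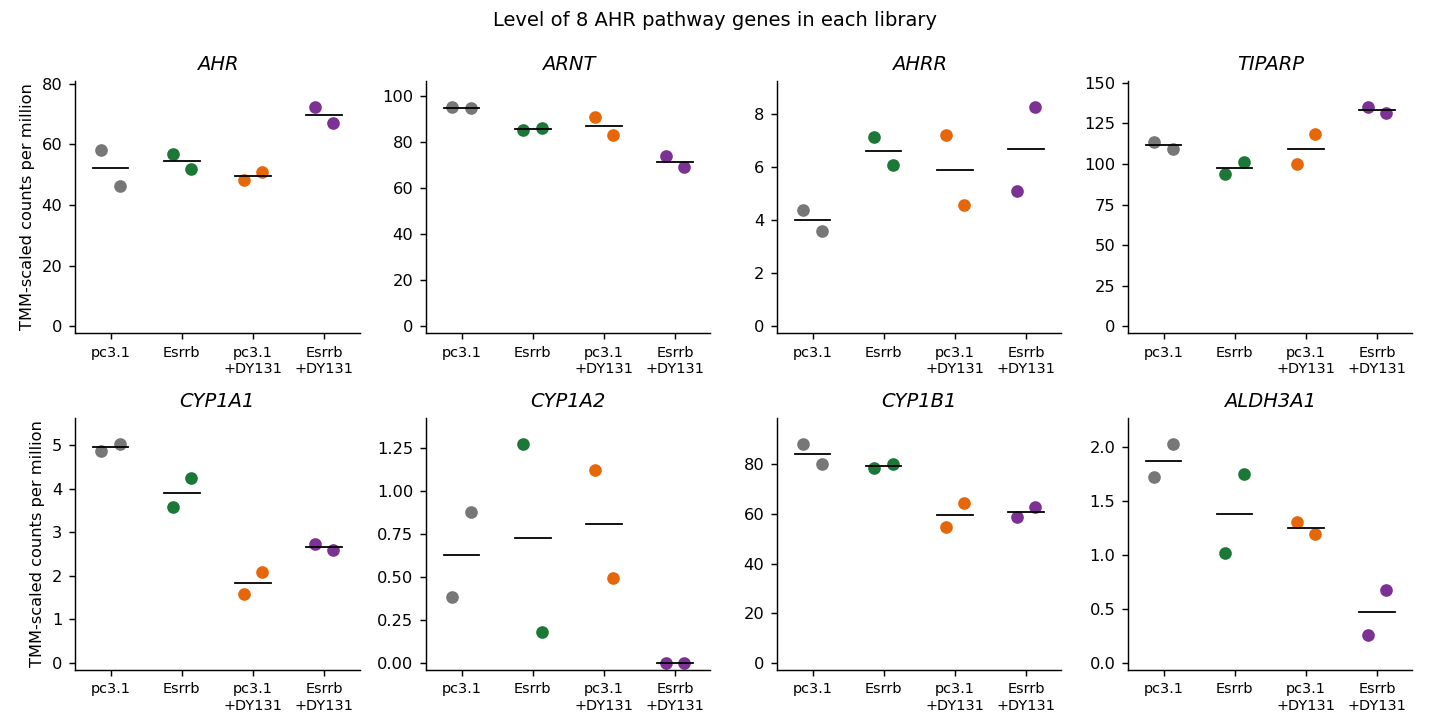
Level of the 8 AHR pathway genes in each library, in cpm scaled with TMM factors, on axes that start at 0 and differ between genes. Each point is 1 library and each bar the mean of 2. CYP1A1 and CYP1B1 are lower in both groups with DY131 than in both without, and TIPARP and AHR are highest in DY131-treated DU145-Esrrb cells.

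In cells with the empty vector (DU145-pc3.1), DY131 lowered 2 of the 8 genes, CYP1A1 and CYP1B1, and raised none. CYP1A1 fell to 0.372 of its untreated level. None of the inducible genes, TIPARP, AHRR, the 3 CYP1 enzymes and ALDH3A1, passed the test for an increase, although AHRR did so in 3 of 17 alternatives. In this comparison 37.4% of all tested genes passed at an adjusted p under 0.05, 18.9% upward and 18.5% downward, so 2 of 8 is a smaller share than among all genes. Here and below, adjusted p-values come from edgeR's quasi-likelihood F test with Benjamini-Hochberg adjustment over all 13856 genes, errors of log2 fold changes are standard errors, and brackets after a log2 fold change hold its 95% interval.

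CYP1A1 lies on chromosome 15 of GRCh38 from 74719542 to 74725610 on the minus strand (GENCODE 29) and encodes an oxidase of polycyclic aromatic compounds. It was at 4.87 and 5.02 cpm in untreated DU145-pc3.1 cells and at 1.59 and 2.08 cpm after DY131. The treated libraries were both below the untreated ones, with 17 and 21 counts against 51 and 57. The mean went from 4.94 ± 0.108 to 1.84 ± 0.349 cpm (SD, n = 2), and the log2 fold change was -1.43 ± 0.25 (-1.97 to -0.89, adjusted p = 4.26e-04). CYP1A1 was the only one of the 8 to pass both the adjusted p and a change of 1 on the log2 scale here, which 4.19% of all genes did. None of its 50-base windows occurred in another gene's transcripts. The call held in each of the 17 alternatives computed, with log2 fold changes from -1.63 to -1.23.

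CYP1B1, a related oxidase that also hydroxylates oestrogens, lies on chromosome 2 from 38066973 to 38109902 on the minus strand. It had 88.1 and 80.2 cpm untreated and 54.6 and 64.5 cpm with DY131. The 2 ranges did not overlap. Its mean went from 84.1 ± 5.56 to 59.5 ± 6.99 cpm (SD, n = 2), and the log2 fold change was -0.50 ± 0.08 (-0.68 to -0.32, adjusted p = 2.34e-04). A transcript on the opposite strand, CYP1B1-AS1, had its own row with 0 to 9 counts per library, and whether the counting used strand is not stated.

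CYP1A2, the liver-enriched member of the family, is encoded next to CYP1A1 on chromosome 15, from 74748844 to 74756202 on the plus strand. Its counts in DU145-pc3.1 cells were 4 and 10 untreated and 12 and 5 with DY131. These ranges overlapped, and the interval of the log2 fold change, -1.19 to 1.88, holds a fall as well as a rise. CYP1A2 entered the test only through 1 library of DY131-treated DU145-pc3.1 cells and 1 of untreated DU145-Esrrb cells that reached 1 cpm. Its differences from DY131-treated DU145-Esrrb cells, where it had no counts, are therefore given below as values without a test. ALDH3A1, which oxidises aromatic aldehydes, lies on chromosome 17 from 19737984 to 19748943 on the minus strand. It was at 1.72 and 2.03 cpm untreated and at 1.31 and 1.19 cpm with DY131, a log2 fold change of -0.58 ± 0.39 (-1.40 to 0.24, adjusted p = 0.256).

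The feedback genes of the pathway did not pass the test in DU145-pc3.1 cells. TIPARP, which modifies AHR and lowers its activity, lies on chromosome 3 from 156673235 to 156706770 on the plus strand. It was at 114 and 109 cpm untreated and at 99.9 and 118 cpm with DY131, with the treated libraries on both sides of the untreated ones. Its log2 fold change was -0.03 ± 0.08 (adjusted p = 0.770), and the interval from -0.19 to 0.13 on the log2 scale limits a rise to 1.09-fold. AHRR, which competes with AHR for ARNT, lies on chromosome 5 from 304176 to 438291 on the plus strand and shares 9.23% of its windows with the overlapping PDCD6, which had 1314 to 1748 counts per library. AHRR was at 4.39 and 3.61 cpm untreated and at 7.20 and 4.56 cpm with DY131. Both treated libraries were above both untreated ones, and the log2 fold change of 0.57 ± 0.27 (-0.001 to 1.13) gave an adjusted p of 0.108. AHRR passed as a rise in 3 of 17 alternatives: at 0.85 without the second DY131-treated replicate (adjusted p = 0.00819), at 0.57 without a filter on low counts (adjusted p = 0.0313) and at 0.73 with the length and GC offset (adjusted p = 0.0287).

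The receptor and its partner changed little in these cells. AHR lies on chromosome 7 from 16916359 to 17346152 on the plus strand. Of its windows 37.5% also occur in an overlapping gene model on the same strand, AC019117.2. It was at 58.3 and 46.4 cpm untreated and at 48.1 and 51.0 cpm with DY131, a log2 fold change of -0.08 ± 0.10 (-0.29 to 0.13, adjusted p = 0.575). ARNT lies on chromosome 1 from 150809705 to 150876768 on the minus strand. It had 95.2 and 95.0 cpm untreated and 91.0 and 83.1 cpm with DY131. The treated libraries lay below the untreated ones, with a log2 fold change of -0.13 ± 0.07 (-0.27 to 0.02, adjusted p = 0.151). Without the first DY131-treated replicate the adjusted p was 0.0403.

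**Figure D2:**
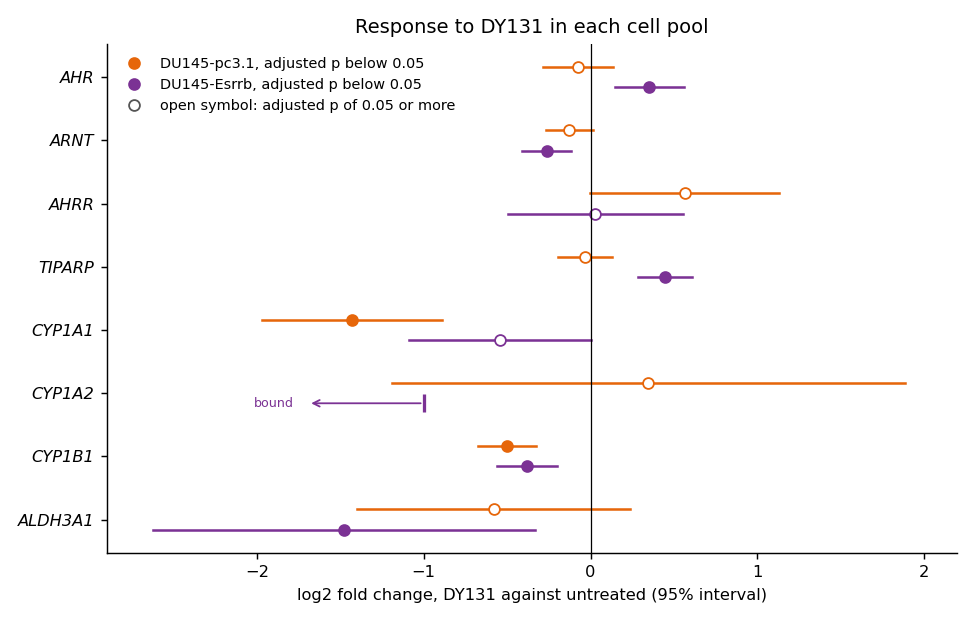
Log2 fold change of each gene with DY131 against untreated cells, with its 95% interval, in DU145-pc3.1 cells (orange) and DU145-Esrrb cells (purple). Filled points passed an adjusted p under 0.05. CYP1A2 in DU145-Esrrb cells is drawn as a bound because it had no counts there with DY131, and this bound takes its untreated mean as exact. CYP1A1 and CYP1B1 lie left of 0 in both pools, and TIPARP and AHR lie right of 0 in DU145-Esrrb cells.

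In DU145-Esrrb cells, DY131 changed 5 of the 7 genes other than CYP1A2: AHR and TIPARP rose, and ARNT, CYP1B1 and ALDH3A1 fell. The background was higher as well, since 58.7% of all tested genes passed here, 29.2% upward and 29.5% downward, and the count of 5 is not read as particular to these genes. CYP1A1 did not pass the test, and its 2 treated libraries were below its 2 untreated ones. Of the 6 inducible genes only TIPARP rose.

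TIPARP was at 94.1 and 101 cpm in untreated DU145-Esrrb cells and at 135 and 132 cpm with DY131. Both treated libraries were above every other library of the study for this gene. Its mean went from 97.7 ± 5.10 to 133 ± 2.30 cpm (SD, n = 2), and the log2 fold change was 0.45 ± 0.08 (0.28 to 0.61, adjusted p = 1.30e-04), or 1.36-fold. With the exon junction offset it was 0.26 (adjusted p = 0.00843). The antisense transcript TIPARP-AS1 had its own row with 16 to 40 counts per library. The rise differed from the response in DU145-pc3.1 cells by 0.48 ± 0.11 on the log2 scale (0.25 to 0.71, adjusted p = 0.00323 for the interaction), and by 0.29 with the junction offset (adjusted p = 0.0587).

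AHR was at 56.9 and 52.0 cpm untreated and at 72.2 and 67.0 cpm with DY131. The treated libraries were above the 6 libraries of the other groups. The mean went from 54.4 ± 3.47 to 69.6 ± 3.67 cpm (SD, n = 2), and the log2 fold change was 0.35 ± 0.10 (0.15 to 0.56, adjusted p = 0.00539). With the junction offset it was 0.20 (adjusted p = 0.0857), with the offset taken from the longest coding transcripts 0.31 (adjusted p = 0.0133), and with an offset for transcript length and GC content 0.15 (adjusted p = 0.161). It was 0.28 without the second untreated replicate (adjusted p = 0.0630) and 0.30 without the first treated library (adjusted p = 0.0661). The response differed from that in DU145-pc3.1 cells by 0.43 ± 0.14 (0.14 to 0.72, adjusted p = 0.0256 for the interaction). That difference was 0.25 without the first untreated DU145-pc3.1 replicate (adjusted p = 0.175) and 0.28 with the junction offset (adjusted p = 0.150). Without the second untreated or either treated DU145-Esrrb library its adjusted p lay between 0.0532 and 0.120, and DESeq2 gave 0.0698.

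ARNT moved the other way. It was at 85.6 and 86.4 cpm untreated and at 73.9 and 69.4 cpm with DY131, the 2 lowest values of the 8 libraries, with a log2 fold change of -0.26 ± 0.07 (-0.41 to -0.11, adjusted p = 0.00442). The direction depends on the exon structure used. The transcript listed for ARNT has 40.9% of its windows across junctions and the longest coding one 21.0%. With the offset from listed transcripts the value was 0.41 (adjusted p = 1.32e-04), and with that from the longest ones -0.08 (adjusted p = 0.355). Without the second treated library and with no offset it was -0.22 (adjusted p = 0.0646).

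CYP1B1, with 1.88% of its windows across junctions, fell in this pool too. It was at 78.4 and 80.1 cpm untreated and at 58.7 and 62.7 cpm with DY131, a log2 fold change of -0.38 ± 0.08 (-0.56 to -0.20, adjusted p = 0.00116). With the junction offset it was -0.64 (adjusted p = 1.17e-05). The responses of the 2 pools differed by 0.12 (-0.14 to 0.37, adjusted p = 0.479 for the interaction). CYP1B1 was the only one of the 8 genes that passed in both pools.

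CYP1A1 was at 3.57 and 4.23 cpm untreated and at 2.74 and 2.60 cpm with DY131. The 2 ranges did not overlap, but the log2 fold change of -0.54 ± 0.26 (-1.09 to 0.004) gave an adjusted p of 0.0814. The upper end of this interval is 1.00-fold of the untreated level. The fall in DU145-pc3.1 cells was deeper by 0.89 ± 0.37 on the log2 scale (0.10 to 1.67), with an adjusted p of 0.0777 for the interaction (0.0490 without the second DY131-treated DU145-pc3.1 replicate). With a filter of 10 counts in every library the fall in DU145-Esrrb cells had an adjusted p of 0.0494. By mean level, CYP1A1 stood highest in untreated DU145-pc3.1 cells (4.94 cpm), then untreated DU145-Esrrb cells (3.90), DY131-treated DU145-Esrrb cells (2.67) and DY131-treated DU145-pc3.1 cells (1.84). No pair of neighbours in this order passed the test, with adjusted p-values of 0.459, 0.0814 and 0.150.

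ALDH3A1 fell from a low level. It was at 1.02 and 1.75 cpm untreated and at 0.261 and 0.678 cpm with DY131, from 12 and 19 counts to 2 and 6. Its log2 fold change was -1.48 ± 0.54 (-2.62 to -0.34, adjusted p = 0.0272), but DESeq2 gave an adjusted p of 0.107. Without the second untreated replicate the adjusted p was 0.190, without the first treated library 0.191, and with the junction offset 0.0796. ALDH3A1 was the only one of the 7 past 1 on the log2 scale in this pool, which 12.0% of all genes were. CYP1A2 had 15 and 2 counts untreated and 0 and 0 with DY131. Its 2 untreated replicates differ more from each other than the lower one does from 0. Against a floor of 3 counts in each treated library, the untreated mean of 0.729 cpm was 2.00-fold the floor. This takes the untreated mean as exact and is no lower limit, since the second untreated library, at 0.184 cpm, was itself under the floor. The floor covers counting error only, since without molecular identifiers 2 reads can stem from 1 molecule.

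AHRR was at 7.13 and 6.07 cpm untreated and at 5.08 and 8.25 cpm with DY131. The treated libraries lay on both sides of the untreated ones, and the log2 fold change was 0.03 ± 0.25 (-0.49 to 0.55, adjusted p = 0.926).

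Across the 7 genes other than CYP1A2 the response to DY131 differed between the pools for 2, AHR and TIPARP, where 33.7% of all genes passed the interaction test. Neither of the 2 passed with the junction offset. ARNT did pass with it, at 0.52 (adjusted p = 0.00106), against -0.14 without it (adjusted p = 0.298). In the other 16 of 17 alternatives ARNT did not pass. For AHRR the interaction was -0.54 (adjusted p = 0.275), and -0.82 without the second DY131-treated DU145-pc3.1 replicate (adjusted p = 0.0441).

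Esrrb by itself moved none of the 8 past the threshold. Untreated DU145-Esrrb cells were compared with untreated DU145-pc3.1 cells, where 4.18% of all genes passed. At an unadjusted p under 0.05 there were 3, ARNT, AHRR and TIPARP, and edgeR's exact test and DESeq2 also called 0 of the 8 after adjustment. Without a filter on low counts AHRR passed (adjusted p = 0.0134), and in a fit of the 4 libraries compared AHRR and TIPARP did (adjusted p = 0.0253 and 0.0465). The largest value was that of AHRR, at 4.39 and 3.61 cpm without Esrrb and 7.13 and 6.07 cpm with it. Its log2 fold change was 0.73 ± 0.26 (0.18 to 1.28, adjusted p = 0.147). The log2 fold change of CYP1A1 was -0.35 ± 0.22 (-0.80 to 0.11, adjusted p = 0.459).

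With DY131 present in both pools, DU145-Esrrb cells had more AHR and TIPARP and less ARNT than DU145-pc3.1 cells, 3 of the 7 genes other than CYP1A2, where 50.4% of all genes passed. AHR was higher by 0.49 ± 0.10 on the log2 scale (adjusted p = 7.25e-04) and TIPARP by 0.29 ± 0.08 (adjusted p = 0.00515). With the junction offset the difference of TIPARP was 0.09 (adjusted p = 0.366). ARNT was lower, at -0.28 ± 0.07 (adjusted p = 0.00353), and its sign turned with that offset, to 0.39 (adjusted p = 3.40e-04). This was the only 1 of 15 alternatives in which the sign of ARNT turned. The difference of CYP1B1 was 0.03 ± 0.09 (adjusted p = 0.792) and turned to -0.27 with the offset (adjusted p = 0.0202). Without the first treated DU145-Esrrb library or the first treated DU145-pc3.1 replicate, the adjusted p of TIPARP was 0.0530 or 0.0525. Without the second treated DU145-Esrrb library that of ARNT was 0.0519. CYP1A2 had 12 and 5 counts in DU145-pc3.1 cells with DY131 and none in DU145-Esrrb cells. Its mean in the former was 2.21-fold the floor of 3 counts per library in the latter, with that mean taken as exact. Each of the 4 groups enters 2 of the comparisons between groups and also the interaction test, so the results of these are not independent of each other.

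**Figure D3:**
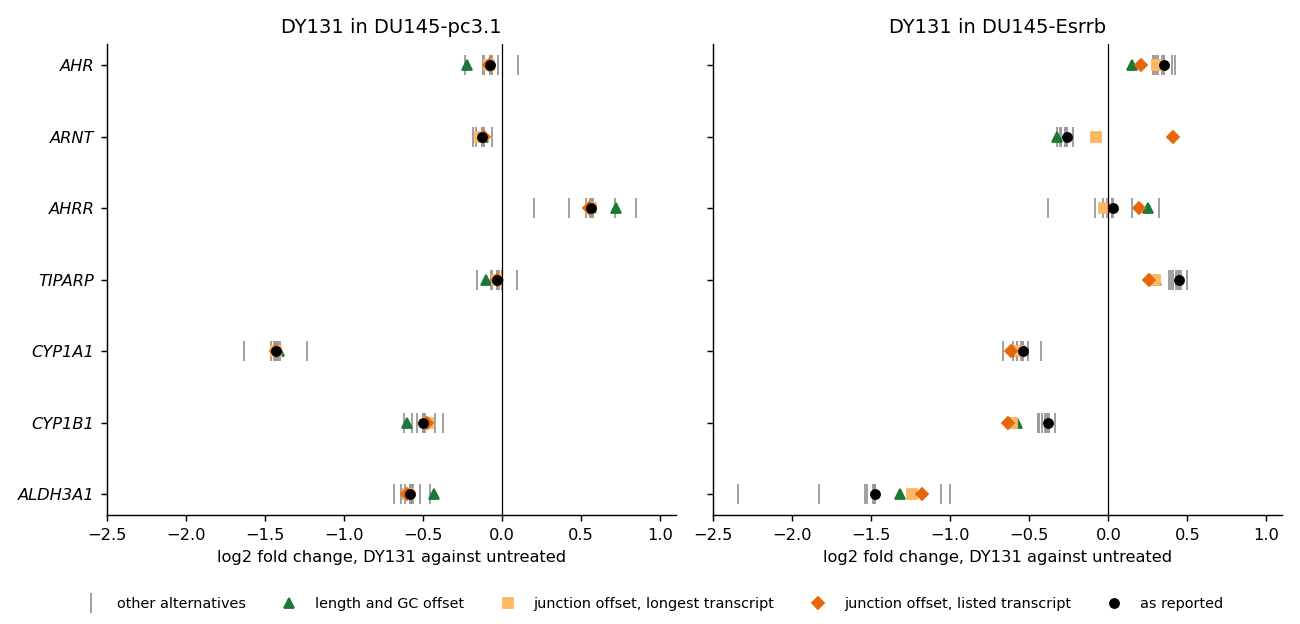
Log2 fold change with DY131 against untreated cells for 7 of the 8 genes, as reported (black circles) and under each alternative: offsets for exon junctions (diamonds and squares), for length and GC content (triangles), and the other tests, scalings, filters and left-out libraries (grey bars). CYP1A2 is left out because it had no counts in 2 libraries. CYP1A1 and CYP1B1 keep their sign under every alternative shown in both pools, and ARNT in DU145-Esrrb cells crosses 0.

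The lists that follow were tested without the junction offset, and counts with it are given where they differ. Chaperone genes whose proteins hold AHR in the cytosol were measured at high levels. HSP90AA1 was at 3226 and 3429 cpm in untreated DU145-pc3.1 cells and at 4721 and 5423 cpm with DY131. In DU145-Esrrb cells it was at 3370 and 3554 cpm untreated and at 5241 and 5112 cpm with DY131. The treated libraries were higher in both pools. The gene, which encodes the inducible HSP90 subunit, rose by 0.61 in DU145-pc3.1 cells (adjusted p = 8.89e-06) and by 0.58 in DU145-Esrrb cells (adjusted p = 3.85e-06) on the log2 scale. Its partner HSP90AB1 rose by 0.42 (adjusted p = 6.15e-05) and 0.58 (adjusted p = 8.46e-07). These 2 genes share 17.5% and 19.6% of their windows with other genes, mostly pseudogenes, so their counts are less certain. PTGES3, which encodes p23, had a log2 fold change of 0.13 in DU145-pc3.1 cells (adjusted p = 0.109) and rose by 0.20 in DU145-Esrrb cells (adjusted p = 0.0133).

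Of 15 other genes that AHR ligands induce in various cells, 8 were measured well enough to test. In DU145-pc3.1 cells 7 of the 8 fell and none rose, with a median log2 fold change of -0.40 against -0.003 over all genes, 18.5% of which fell (6 of the 8 with the junction offset). EREG, a growth factor, was the one that did not pass (log2 fold change -0.03). In DU145-Esrrb cells 3 fell, 1 rose (EREG, by 0.25, adjusted p = 0.00108) and 4 did not pass, with a median of -0.24 against -0.004, where 29.5% of all genes fell and 29.2% rose. With the junction offset 5 fell and none rose, and EREG was at 0.04 (adjusted p = 0.614). None of the 8 changed by 1 on the log2 scale in either pool. NQO1, a quinone reductase that NRF2 induces as well, was at 1663 and 1554 cpm in untreated DU145-pc3.1 cells and at 1187 and 1293 cpm with DY131 (log2 fold change -0.38, adjusted p = 2.24e-04). In DU145-Esrrb cells NQO1 was at 1601 and 1504 cpm untreated and at 1024 and 1022 cpm with DY131 (log2 fold change -0.60, adjusted p = 9.26e-07). The treated libraries were lower in both pools. UGT1A1, UGT1A6, GSTA1 and SERPINB2 had no counts in any library, where 3 counts would be 0.255 to 0.391 cpm. UGT1A1 and UGT1A6 share 61.4% and 59.1% of their windows with other genes of their cluster, so their absence may depend on how shared reads were counted.

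**Figure D4:**
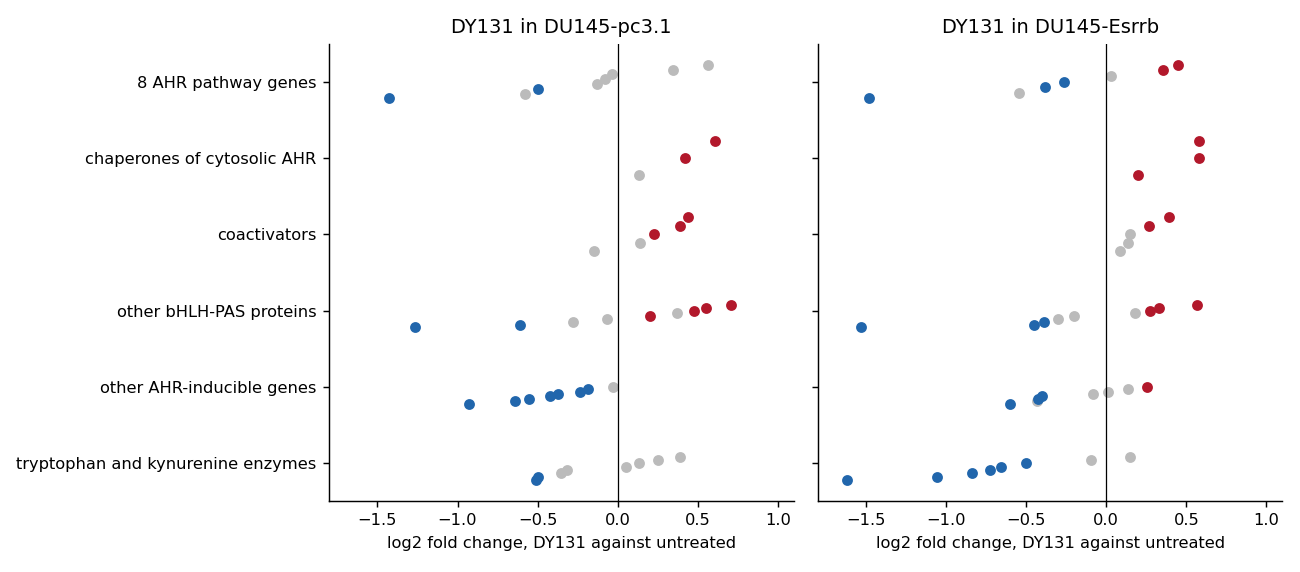
Log2 fold change with DY131 against untreated cells for the 8 AHR pathway genes and 5 lists of related genes, in DU145-pc3.1 cells (left) and DU145-Esrrb cells (right). Each point is 1 gene described here, red for a rise and blue for a fall at an adjusted p under 0.05 and grey otherwise, and CYP1A2 is left out on the right. In DU145-pc3.1 cells no gene of the inducible list lies right of 0.

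Of 13 other bHLH-PAS proteins, the family of AHR and ARNT, 9 were tested. In DU145-pc3.1 cells 4 rose and 2 fell, and in DU145-Esrrb cells 3 rose and 3 fell (2 with the junction offset). Of all genes 37.4% passed in DU145-pc3.1 cells and 58.7% in DU145-Esrrb cells, so 6 of 9 in the latter is near the share among all genes. The neuronal family member NPAS1 fell past 1 on the log2 scale in both pools, by 1.26 in DU145-pc3.1 cells (adjusted p = 0.00447) and by 1.53 in DU145-Esrrb cells (adjusted p = 0.00224). It was at 2.21 to 3.34 cpm in the 4 untreated libraries and lower in all 4 with DY131. Of 5 coactivators, 3 rose in DU145-pc3.1 cells and 2 in DU145-Esrrb cells, none by 1 on the log2 scale, and none fell, where 18.9% and 29.2% of all genes rose. With the junction offset 3 rose in DU145-Esrrb cells.

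Tryptophan breakdown yields kynurenine and other natural AHR ligands. Of 11 enzymes of this route 8 were tested, and the first-step enzymes TDO2 and IDO2 had no counts. The first-step enzyme IDO1 was at 0.509 to 1.31 cpm over the 8 libraries and passed in neither pool. In DU145-pc3.1 cells 2 enzymes fell and none rose, where 18.5% of all genes fell. In DU145-Esrrb cells 6 fell and none rose, with a median log2 fold change of -0.69, where 29.5% of all genes fell. Their listed transcripts had 13.2% to 35.9% of windows across junctions, with a median of 30.2% against 14.4% over all tested genes. With the junction offset 3 of the 8 fell in DU145-Esrrb cells, and the median was -0.41. The largest falls there were those of HAAO, which makes quinolinate (log2 fold change -1.62, adjusted p = 0.0298), and of the aminotransferase CCBL2 (-1.05, adjusted p = 1.96e-05). With the offset CCBL2 was at -0.66 (adjusted p = 0.00197) and HAAO at -1.10 (adjusted p = 0.147). HAAO rested on 69 counts in all. CCBL2 shares 19.2% of its windows with the overlapping gene RBMXL1. KYNU, which cleaves kynurenine, was lower in DU145-Esrrb than in DU145-pc3.1 cells with DY131 present, by -1.14 on the log2 scale (adjusted p = 4.17e-06), or -0.73 with the offset (adjusted p = 3.49e-04).

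Among all tested genes, the 5 whose log2 level followed AHR most closely over the 8 libraries were IKZF5, ZKSCAN1, HDHD1, OR7E37P and RNGTT, with Pearson's r from 0.963 to 0.995. For TIPARP they were CHM, TEFM, ISCA1, RAB11FIP5 and PPM1D, with r from 0.964 to 0.979. With 8 libraries in 4 groups such values are common: 134 genes had an r above 0.9 with AHR and 174 with TIPARP.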

How the data were processed

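RNA of both cell pools, with and without DY131, was sequenced as 50-base single reads in 8 libraries. The authors cleaned the reads (FASTX-Toolkit), aligned them to hg18 (TopHat2) and deposited raw counts per gene from their program MULTICOM-MAP. How strand and reads shared between genes were handled is not given in the sources used here. The values are not normalized and are listed by symbol and RefSeq identifier. Of the symbols, 28 had been turned into numbers. The 2 columns of DY131-treated DU145-Esrrb cells have the same heading, so they carry no replicate number and are called first and second by their place in the table.

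Genes reaching 1 cpm in 2 or more libraries were kept, and their counts were scaled with TMM factors (0.971 to 1.02). Levels are cpm of TMM-scaled library sizes. All 8 libraries in 4 groups were fitted with edgeR 4.0.16 (R 4.3.3, limma 3.58.1), and contrasts were tested with the quasi-likelihood F test, adjusted by Benjamini-Hochberg over all genes tested. A gene passed at an adjusted p under 0.05. DESeq2 1.42.0 and edgeR's exact test, which the authors used, were alternatives. With 2 replicates per group, p-values rest on a spread shared across genes. The steps were tested on simulated counts.

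Positions, transcript lengths, junction windows and shared windows come from GENCODE 29 on GRCh38, not hg18: RefSeq identifiers placed 22018 genes and symbols another 721, leaving 652 without a match. Promoter sequences come from RefSeq on GRCh38.p14. The genes, lists and tests were chosen with earlier results of these data known. All 8 genes were described. From each list the text names the genes that passed with a change of at least 1 on the log2 scale in any comparison, with genes of the cytosolic complex and NQO1 in any case. CYP1A2 is left out of counts of called genes wherever it had no counts in a group. That choice and the junction offset for the lists were added after seeing the data. Some genes of these lists are not reported here. EREG, IDO1 and genes without counts were named after their values were seen. The 5 genes most like AHR and TIPARP were taken by Pearson's r of log2 cpm (prior count 2). Figures were drawn with matplotlib 3.10.9 (Python 3.11.15).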

Additional observations from a re-analysis of the deposited data

Results flagged for a closer look

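The response to DY131 differed between the pools for AHR and TIPARP by the interaction test, 2 of the 7 genes other than CYP1A2. Of all tested genes 33.7% passed this test, so the count is not read as particular to these genes. For AHR the response in DU145-Esrrb cells minus that in DU145-pc3.1 cells was 0.43 on the log2 scale (adjusted p = 0.0256), with both treated DU145-Esrrb libraries above every other library. For TIPARP it was 0.48 (adjusted p = 0.00323), in the same 2 libraries. A relation of fold changes with exon junctions runs through the same comparison (Spearman's rho = -0.46 over 13606 genes). With an offset for it the difference was 0.28 for AHR (adjusted p = 0.150) and 0.29 for TIPARP (adjusted p = 0.0587), so neither passed. For CYP1A2 the fitted difference was -6.30, which is set by 2 libraries without counts and is no measured size. This gene entered the test only through libraries of groups where it was higher, so no test is given for it.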

How the results depend on the processing

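With 2 replicates per group and 48 to 472 counts over all libraries for CYP1A2, ALDH3A1, CYP1A1 and AHRR, depth limits what could be seen of these 4. The fall of CYP1A1 in DU145-pc3.1 cells held in all 17 alternatives. A threshold of 1 on the log2 scale was added over the 7 genes other than CYP1A2. It left 1 call in DU145-pc3.1 cells and 1 in DU145-Esrrb cells. For the interaction and for Esrrb with DY131 it left 0. Counts below with 1 library left out are over all 8 genes and include CYP1A2 where it was tested. They are not read as calls of CYP1A2. For Esrrb in untreated cells the count was 1 without a filter on low counts and 2 in a fit of the 4 libraries compared. Leaving out 1 library at a time gave 2 to 3 genes for DY131 in DU145-pc3.1 cells, 3 to 5 in DU145-Esrrb cells (3 without the first treated library), 1 to 5 for the interaction (1 without the first untreated DU145-pc3.1 replicate or either treated DU145-Esrrb library, 5 without the second DY131-treated DU145-pc3.1 replicate), 0 to 0 for Esrrb in untreated cells and 2 to 4 for Esrrb with DY131 (2 without the first DY131-treated DU145-pc3.1 replicate or either treated DU145-Esrrb library). The group left with 1 library was assumed to vary like the others. The exact test gives no interaction. With the exon junction offset ARNT turned to 0.41 for DY131 in DU145-Esrrb cells, 0.52 for the interaction and 0.39 for Esrrb with DY131, and CYP1B1 turned to -0.27 for Esrrb with DY131. In no other alternative did ARNT pass with its sign turned in these comparisons. With the offset from the longest coding transcripts, added after seeing the data, CYP1B1 was at -0.24. The causes of these changes were not tested. Replicate numbers of the sample titles showed no pairing of the libraries (correlations of same-numbered deviations of 0.092, 0.023 and -0.068). A block on these numbers in the 6 numbered libraries gave 2 genes for DY131 in DU145-pc3.1 cells. For Esrrb in untreated cells it gave 0, and both counts were as without it. The column headings number some of these libraries otherwise, and a pairing by the headings was not tested.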
